A study of Mus musculus with 6 samples.

Results

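The genes described here are the potassium, calcium, sodium and chloride channel genes of mouse acute erythroid leukemia (AEL) cells and normal erythroid precursors (NC). They were taken by name: every row of the deposited table whose symbol begins with Kcn, Cacn or Clcn, with Scn and a digit, or with Trpc, Trpm or Trpv and a digit, and the 6 genes Piezo1, Orai1, Orai2, Orai3, Stim1 and Stim2. The rule gave 51 of 13007 rows, and 50 of these passed the filter on low counts and were tested. Among them, 2 are not channels: Kcnq1ot1 is a noncoding RNA and Trpc4ap is a protein named for a channel it binds. The mouse annotation GENCODE M21 holds 172 protein-coding genes with such names, and 50 of those have a row in the table used here.

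Poly-A RNA was sequenced from 3 AEL and 3 NC libraries of mouse bone marrow (strain C57BL/6), called biological replicates in the labels, each from sorted cells. The AEL libraries are labelled Trp53-/- and ERG-expressing: leukemic marrow cells carried transduced ERG, which encodes a transcription factor of the ETS family, and were sorted as GFP-positive cells. The NC libraries are labelled WT, and their marrow was sorted with antibodies to CD71 and Ter119, surface markers of red cell precursors. SETBP1 and ASXL1 mutations appear in the tissue label of every library, AEL and NC; for NC this contradicts WT, and the labels do not settle it. The labels give no promoter for ERG, no animal of origin and no age. Effects of the differing sorts and of leukemia cannot be told apart in this design, nor can fewer cells of a type and less RNA per cell.

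Ion channels are membrane proteins that let ions flow down their gradients. Voltage-gated channels open when the membrane potential changes, inward rectifiers and two-pore channels hold the resting potential, and mechanosensitive channels open when the membrane is stretched. In red cells, calcium that enters through the stretch-gated channel Piezo1 opens the calcium-activated potassium channel Kcnn4, known as the Gardos channel, and the cell then loses potassium and water. In human patients, mutations in either gene cause hereditary xerocytosis, an anemia of dehydrated red cells. In most blood cells, calcium also enters through store-operated channels, where Stim proteins sense the calcium of the endoplasmic reticulum and open Orai pores in the plasma membrane.

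Library totals ran from 8541477 to 9945330 counts in AEL and from 8171676 to 9385507 counts in NC. Levels are given as normalised CPM, the usual count unit scaled by the library total, here with a TMM factor that allows for differences in RNA composition. The biological coefficient of variation over all genes was 44.1% in AEL and 9.01% in NC. Summed over 16 neutrophil markers, the level was 21.7, 1273 and 136 CPM in AEL replicates 1 to 3 and 8400 to 9907 CPM in NC. Over 16 monocyte and macrophage markers it was 34.2, 111 and 65.2 CPM in AEL and 4004 to 4824 CPM in NC, and the macrophage genes Spic and Timd4 had no count in AEL. The 10 B cell markers summed to 1.69 to 2.74 CPM in AEL and 230 to 276 CPM in NC, the 6 measured T and NK cell markers to 0.225 to 1.09 and 49.9 to 55.4 CPM, and the 9 stromal and endothelial markers to 5.51 to 31.3 and 93.4 to 115 CPM. Megakaryocyte markers (8 measured) summed to 173 to 449 CPM in AEL and 114 to 135 CPM in NC, and those of mast cells, basophils and eosinophils (9 measured) to 384 to 588 and 200 to 232 CPM. All 12 erythroid markers were counted in both groups, with sums of 5326 to 13100 CPM in AEL and 49640 to 62390 CPM in NC. By the edgeR test described below, 15 neutrophil, 13 monocyte and macrophage, 10 B cell, 4 T and NK cell, 6 stromal and 9 erythroid markers were lower in AEL and none of these lists had a higher one. Of the mast cell, basophil and eosinophil markers 5 were lower and 1 higher, with no count of Epx or Ccr3 in AEL, so the larger sum in AEL goes against most of the markers called. Of the megakaryocyte markers 2 were lower and 3 higher, with no count of Ppbp or Gp1bb in AEL. NC thus held RNA of other leukocytes that was scarcer in AEL, and the part of these cells in the channel differences below was not tested.

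Most channel genes differed between the groups, and both directions occurred within several families. Of the 50 genes tested, 16 were higher in AEL, against 23.9% of all 12427 genes tested, and 24 were lower, against 29.0% of all genes (edgeR quasi-likelihood test, Benjamini-Hochberg adjusted p under 0.05). In either direction 52.8% of all genes were called. Calls over all genes fell from 2964 higher and 3599 lower when an NC library was left out. Without NC replicate 1, 2 or 3 they were 1915, 1972 and 2062 higher and 2697, 2662 and 2682 lower. Calls of single genes that ended in those fits are to be read beside this fall. With library totals alone as the scaling, 16 of these genes were higher and 21 lower, against 3800 and 3080 of all 12427 genes. The median log2 fold change of AEL over NC was -1.02 over these 50 genes and -0.05 over all genes. With the 3 genes that had no count in a whole group placed at their bound, it was also -1.02. All AEL libraries lay above all NC libraries for 15 genes, against 29.9% of all genes, and below them for 27, against 36.1% of all genes; 66.0% of all genes had such groups in either direction. Many of these genes entered the table through 1 group alone, so they had to differ: 13 of the 50 reached 1 CPM in no AEL library and 5 in no NC library, against 7.29% and 2.29% of all genes tested. The counts of calls are therefore no evidence about channels as a class. Cacnb4, an auxiliary subunit of voltage-gated calcium channels, was the gene not tested, with 0.543 to 0.732 CPM in AEL and 0.645 to 1.77 CPM in NC.

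**Figure D1:**
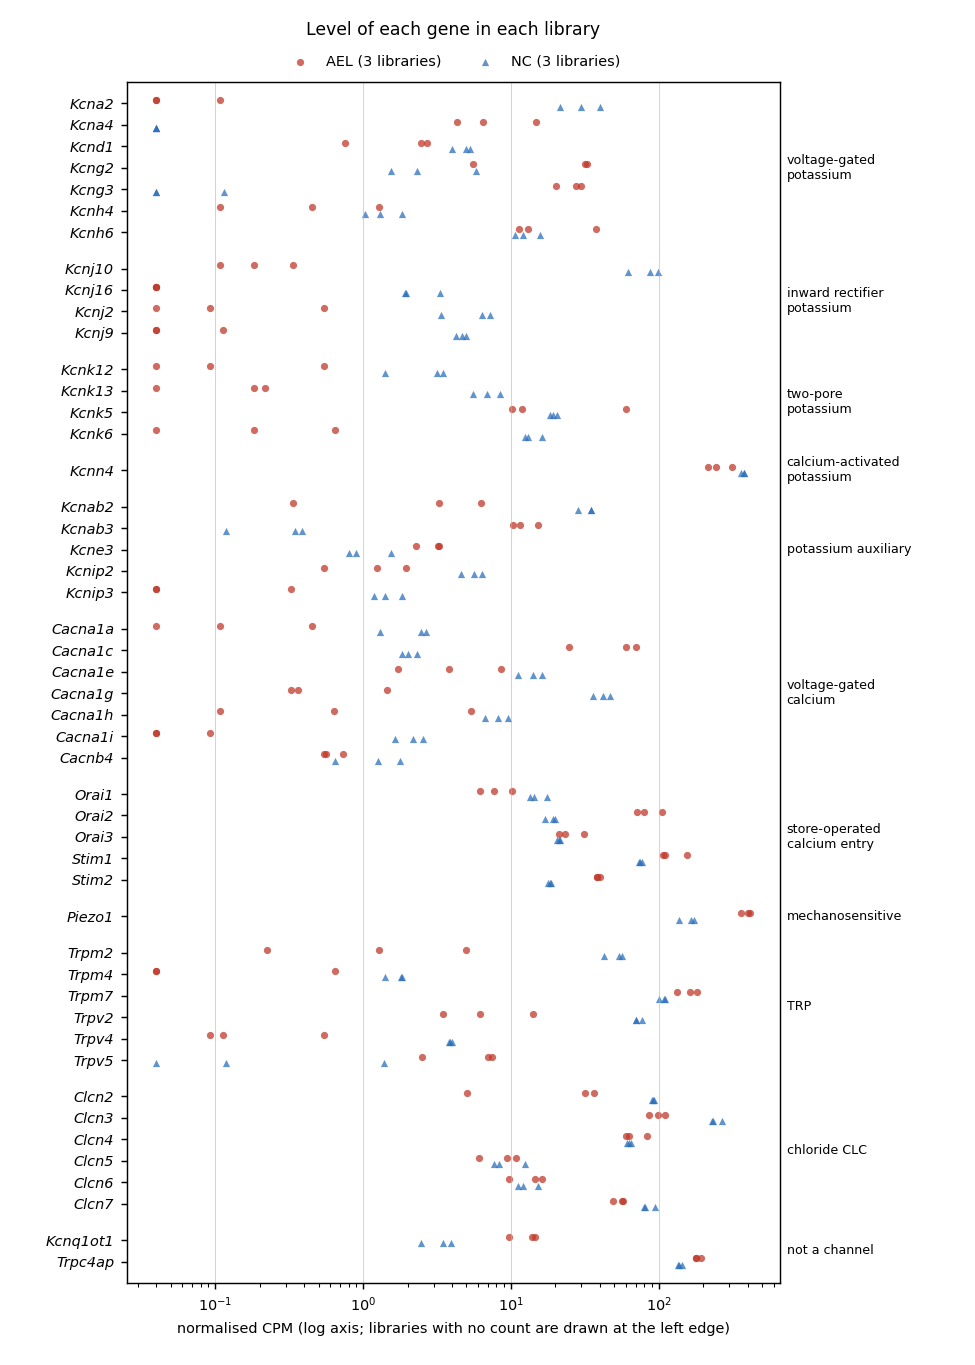
Normalised CPM of 48 of the 51 genes (rows, grouped by family) in each library, on a log axis; circles are the 3 AEL libraries and triangles the 3 NC libraries, and libraries with no count sit at the left edge. The AEL circles of Kcna2 and the inward rectifiers lie far to the left of the NC triangles, and those of Kcna4, Kcng3 and Kcnab3 far to the right.

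**Figure D2:**
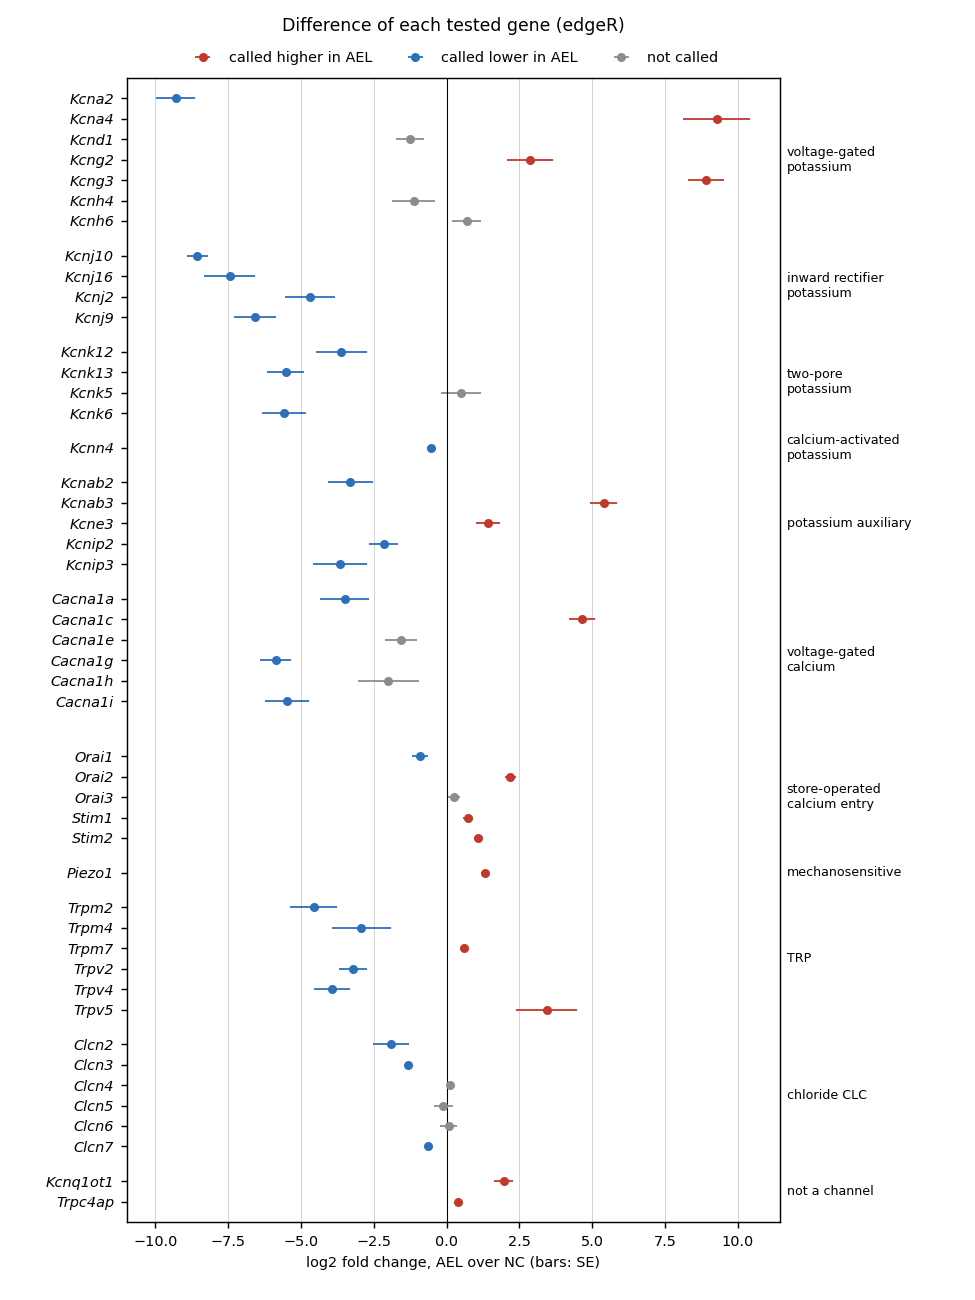
Log2 fold change of AEL over NC with its SE (horizontal bars) for 47 of the 50 tested genes, grouped by family and coloured by the edgeR call. The voltage-gated potassium, voltage-gated calcium and TRP families hold genes called higher and genes called lower; the value of a gene with no count in a group depends on the prior count of the fit.

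The voltage-gated potassium channels held the clearest examples of genes counted in 1 group and hardly in the other. Of 9 tested, 5 were higher and 1 was lower in AEL, against 23.9% and 29.0% of all genes tested. Among these, 4 of the higher genes and the lower one reached 1 CPM in 1 group only. Kcna4, which encodes a fast-inactivating channel of the Shaker family (chromosome 2, 107290639 to 107298502 in GRCm38), had 58, 40 and 161 counts in AEL, or 6.53, 4.34 and 14.7 CPM, and none in any NC library. Set against 3 counts in the NC library of least effective depth (0.387 CPM), this was at least 22.05-fold higher (adjusted p = 0.00295). It was thus present in every AEL library, with AEL replicate 2 the lowest. This floor and the counting intervals below cover counting error only. The intervals pool the counts of each group and so leave out the spread among its libraries. No molecular identifiers are mentioned in the labels.

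Kcng3 encodes a silent subunit, which forms no channel alone and modifies the channels of the Kcnb family. It lies on chromosome 17, 83585957 to 83631895. It had 245, 186 and 329 counts in AEL and 0, 0 and 1 count in NC, or 27.6, 20.2 and 30.1 CPM against 0, 0 and 0.115 CPM. The ratio of the summed counts per normalised total was 652, with a 95% exact counting interval from 117 to 25778 (edgeR adjusted p = 0.000183). Its AEL libraries lay close together, unlike those of Kcna4. The fitted log2 fold change of 8.91 became 10.88 without NC replicate 3, which holds the single NC count, and that of Kcna4, 9.27, became 8.56 without AEL replicate 3.

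Kcng2, the other silent subunit measured (chromosome 18, 80294546 to 80364254), was at 31.8, 32.8 and 5.58 CPM in AEL and 1.55, 5.79 and 2.30 CPM in NC. AEL replicate 3 fell within the range of NC, so the groups overlapped. Its log2 fold change of 2.85 (SE 0.79, adjusted p = 0.0211) no longer passed without NC replicate 1 (adjusted p = 0.0763) or NC replicate 3 (adjusted p = 0.0833), and was 3.59 without NC replicate 2.

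Kcna2, a delayed rectifier of the same Shaker family as Kcna4, went the other way. It lies on chromosome 3, 107101146 to 107115005, and had 0, 1 and 0 counts in AEL and 166, 252 and 347 counts in NC, or 0, 0.109 and 0 CPM against 21.4, 29.8 and 39.96 CPM. The NC level per summed count was 892 times the AEL level, with a counting interval from 160 to 35277 (adjusted p = 0.000201). The log2 fold change of -9.29 became -11.06 without AEL replicate 2, which holds the single AEL count. The 2 Shaker family genes measured were therefore each counted in 1 group and nearly uncounted in the other.

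No call was made for Kcnd1, Kcnh4 or Kcnh6. Kcnd1, a channel of the A-type current, was at 0.760 to 2.70 CPM in AEL and 3.997 to 5.30 CPM in NC, with no overlap (log2 fold change -1.26, SE 0.50, adjusted p = 0.0696). It passed as lower in limma with 1 or 5 CPM added (limma adjusted p = 0.0327 and 0.0183). Kcnh6 belongs to the ether-a-go-go-related potassium channels, whose name shares its short form with the unrelated transcription factor ERG. It was at 13.1, 37.7 and 11.3 CPM in AEL and 10.7, 12.05 and 15.8 CPM in NC, with only AEL replicate 2 above the NC range (adjusted p = 0.277). Kcnh4, of the related Elk channels, was at 0.109 to 1.28 CPM in AEL and 1.03 to 1.84 CPM in NC (adjusted p = 0.233), and it passed as lower without AEL replicate 3 (log2 fold change -2.25, adjusted p = 0.0325).

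The upstream sequences of the 2 largest rises and the 2 largest falls among genes with a single RefSeq start are shown, since these are the genes that were counted almost wholly in 1 group. Each is the 250 bases before the annotated start in GRCm38.p6, read 5′ to 3′ on the strand of the gene. Capitals mark matches to letters associated with 3 factors of erythroid cells, searched on both strands: CCGGAA for ETS factors, AGATAA for GATA factors and CCNCNCCC for KLF1. Overlapping matches run together.
Kcna4, chr2:107290339-107290588, plus strand: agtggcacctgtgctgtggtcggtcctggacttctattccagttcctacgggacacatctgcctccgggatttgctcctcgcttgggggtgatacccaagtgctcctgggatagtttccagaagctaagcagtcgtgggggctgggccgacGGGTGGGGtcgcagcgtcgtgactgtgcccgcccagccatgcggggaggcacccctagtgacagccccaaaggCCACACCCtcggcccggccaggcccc
Kcng3, chr17:83631896-83632145, minus strand: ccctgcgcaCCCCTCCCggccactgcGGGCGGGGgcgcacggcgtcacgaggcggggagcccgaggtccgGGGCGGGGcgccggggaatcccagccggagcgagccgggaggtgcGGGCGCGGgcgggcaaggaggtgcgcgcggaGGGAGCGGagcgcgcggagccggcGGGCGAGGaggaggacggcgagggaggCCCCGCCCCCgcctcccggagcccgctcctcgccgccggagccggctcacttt
Kcna2, chr3:107101317-107101566, plus strand: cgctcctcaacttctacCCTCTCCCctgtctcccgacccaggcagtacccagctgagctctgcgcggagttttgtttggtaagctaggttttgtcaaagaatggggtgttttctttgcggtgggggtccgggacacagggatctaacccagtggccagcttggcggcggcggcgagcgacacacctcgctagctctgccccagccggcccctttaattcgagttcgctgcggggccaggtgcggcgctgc
Kcnj10, chr1:172340960-172341209, plus strand: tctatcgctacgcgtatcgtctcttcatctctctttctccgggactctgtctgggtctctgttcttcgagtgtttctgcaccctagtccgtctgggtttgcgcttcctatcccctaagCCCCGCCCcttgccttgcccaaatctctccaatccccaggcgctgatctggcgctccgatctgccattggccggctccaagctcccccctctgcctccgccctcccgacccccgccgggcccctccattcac

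None of these 4 sequences held the ETS or GATA letters, and all 4 held the KLF1 letters, with 2 matches for Kcna4, 8 for Kcng3 and 1 each for Kcna2 and Kcnj10. The Kcng3 sequence was 82.4% G and C, against 62% to 65.2% in the other 3. In windows from 250 bases before to 50 after each start, the ETS letters stood for 5 of the 40 genes with a RefSeq window, against 16.7% of all 27025 genes with one. The GATA letters stood for 3 of 40, against 12.7% of all, and the KLF1 letters for 32 of 40, against 51.9% of all. Genes with several starts had several windows and so more chances of a match. By window, the ETS letters stood in 8.62% of the 58 windows of these genes, against 14.9% of all 32851 windows. For the GATA letters the shares were 5.17% and 11.2%, and for the KLF1 letters 69.0% and 49.5%. Among those called, the ETS letters stood for 1 of 12 higher and 2 of 19 lower genes. The GATA letters stood for 1 of 12 and 2 of 19, and the KLF1 letters for 9 of 12 and 16 of 19. A match of letters is not a bound site, and these counts describe sequence only.

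**Figure D3:**
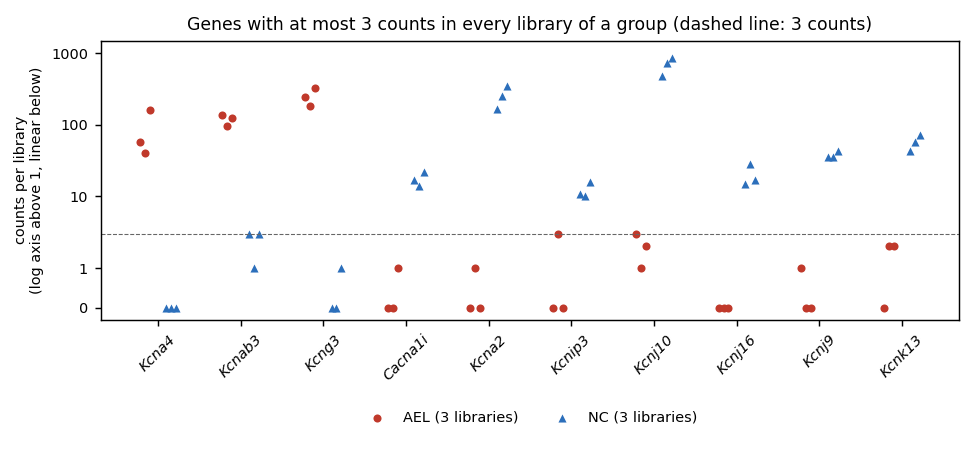
Raw counts per library of 10 of the 11 genes with at most 3 counts in every library of AEL or of NC; circles are AEL, triangles NC, the axis is logarithmic above 1 and linear below, and the dashed line marks 3 counts. Kcna4, Kcnab3 and Kcng3 were counted in AEL and the other 7 genes in NC.

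The 4 inward rectifier genes of the table were counted almost wholly in NC. Each reached 1 CPM in no AEL library, so they passed the filter through NC alone, and their common direction follows from that and is given as a description. Kcnj10 encodes the main potassium-buffering channel of glia and kidney (chromosome 1, 172341210 to 172374085). It had 3, 1 and 2 counts in AEL and 482, 741 and 859 counts in NC, or 0.338, 0.109 and 0.183 CPM against 62.2, 87.5 and 98.9 CPM. The log2 fold change was -8.55 (SE 0.37, adjusted p = 6.77e-05). Kcnj16, whose product joins that of Kcnj10 in mixed channels, had no count in AEL and 15, 28 and 17 counts in NC, at least 7.11-fold lower when AEL is set at 3 counts in its library of least effective depth (0.338 CPM; adjusted p = 0.0025).

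Kcnj9, a subunit of channels opened by G proteins, had 1, 0 and 0 counts in AEL and 36, 36 and 43 counts in NC (adjusted p = 0.00071). Its NC level was 134 times the AEL level, with a counting interval from 23.6 to 5342. Kcnj9 and Kcnj10 are neighbours on chromosome 1. Of the 20 tested genes around Kcnj10, 10 on each side and Kcnj9 among them, 10 were lower, against 29.0% of all genes. The median log2 fold change of the 20 was -1.09. Kcnj2, the strong inward rectifier of heart and muscle, was at 0, 0.543 and 0.0914 CPM in AEL and 3.35, 6.38 and 7.25 CPM in NC (log2 fold change -4.68, SE 0.85, adjusted p = 0.0043). The fold change was -6.42 without AEL replicate 2 and -4.09 without AEL replicate 1, and that of Kcnj9, -6.57, was -8.35 without AEL replicate 1.

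Of the 4 genes of two-pore potassium channels, which carry background current, Kcnk6, Kcnk12 and Kcnk13 reached 1 CPM in NC only, so that a lower level in AEL was fixed by the filter. Kcnk6 was at 0, 0.651 and 0.183 CPM in AEL and 12.5, 12.99 and 16.2 CPM in NC (log2 fold change -5.58, SE 0.76, adjusted p = 0.00154). The fold change ran to -6.89 without AEL replicate 2 and to -4.99 without AEL replicate 1. Kcnk13, a halothane-inhibited channel known from microglia, had 0, 2 and 2 counts in AEL and 43, 58 and 73 counts in NC (log2 fold change -5.53, SE 0.64, adjusted p = 0.000894). Its NC level was 50.7 times the AEL level, with a counting interval from 19.5 to 188. Its relative Kcnk12 was at 0 to 0.543 CPM in AEL and 1.42 to 3.45 CPM in NC. That call (log2 fold change -3.61, adjusted p = 0.0133) ended without NC replicate 2 (adjusted p = 0.0515) or NC replicate 3 (adjusted p = 0.0536), and the fold change was -5.36 without AEL replicate 2 and -3.02 without AEL replicate 1.

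Kcnk5, an acid-sensitive two-pore channel, stood at 60.2 CPM in AEL replicate 1, above every NC library, and at 10.2 and 11.9 CPM in the other AEL libraries, below the NC range of 18.5 to 20.5 CPM. The AEL libraries thus lay on both sides of NC, and no call was made (log2 fold change 0.49, SE 0.67, adjusted p = 0.565). Without AEL replicate 1 the direction turned and the gene was called lower (log2 fold change -0.74, adjusted p = 0.0305).

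The mechanosensitive channel gene Piezo1 was higher in AEL and the Gardos channel gene Kcnn4 lower. Piezo1 (chromosome 8, 122481698 to 122551329) was at 418, 403 and 360 CPM in AEL and 138, 166 and 174 CPM in NC, 2.47-fold higher (log2 fold change 1.30, SE 0.13, adjusted p = 0.000544). All AEL libraries were above all NC libraries, and the call held under all 15 alternatives. On the opposite strand, Ctu2 overlaps 24.6% of the annotated Piezo1 exon length. Ctu2, a gene of transfer RNA modification, was at 34.7, 37.5 and 50.2 CPM in AEL and 19.99, 22.7 and 24.2 CPM in NC, so reads of the overlap cannot be told apart if counting ignored the strand.

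Kcnn4 (chromosome 7, 24370263 to 24386690) was at 314, 215 and 246 CPM in AEL and 381, 363 and 380 CPM in NC (log2 fold change -0.54, SE 0.15, adjusted p = 0.0241), with no overlap between groups. The call ended without NC replicate 1, 2 or 3 (adjusted p = 0.0789, 0.0678 and 0.0758), where the log2 fold changes were -0.52, -0.56 and -0.53. It also ended with library totals alone (log2 fold change -0.35, adjusted p = 0.0799). Per kilobase of annotated exon, Kcnn4 had the highest level of the 51 genes in both groups, 42.1 to 61.4 CPM per kb in AEL and 71.0 to 74.5 CPM per kb in NC. Piezo1 came next in AEL at 36.2 to 42.0 CPM per kb, just below the Kcnn4 range, and stood at 13.9 to 17.5 CPM per kb in NC, far below it. The sources used here do not give the exon models behind the deposited counts, so levels per length are approximate.

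**Figure D4:**
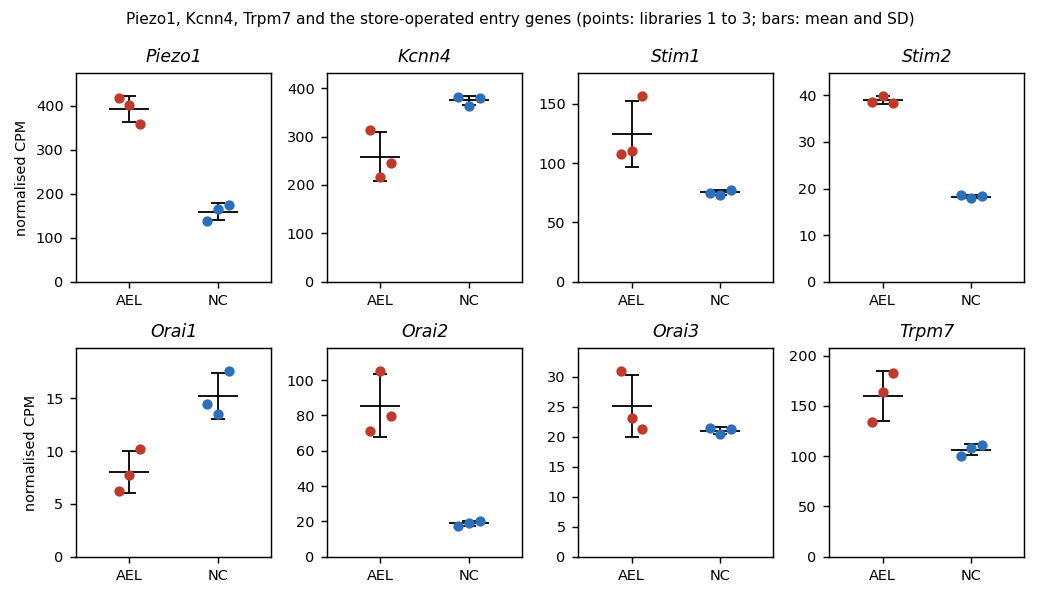
Normalised CPM of Piezo1, Kcnn4, the store-operated entry genes and Trpm7, 1 panel per gene with its own axis from 0; points are libraries 1 to 3 of each group and bars the mean and SD. Piezo1, Stim1, Stim2, Orai2 and Trpm7 are higher in all AEL than in all NC libraries, Kcnn4 and Orai1 lower, and Orai3 overlaps.

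Of 5 store-operated calcium entry genes, 3 were called higher and 1 lower, against 23.9% and 29.0% of all genes tested. Orai2, a pore subunit, was at 71.0, 105 and 79.9 CPM in AEL and 17.2, 19.4 and 20.04 CPM in NC, 4.53-fold higher (log2 fold change 2.18, SE 0.19, adjusted p = 0.000361). Stim2, a sensor of small drops in stored calcium, was at 38.6, 39.9 and 38.3 CPM in AEL and 18.6, 18.0 and 18.3 CPM in NC, 2.13-fold higher (log2 fold change 1.09, SE 0.15, adjusted p = 0.00142). The libraries of each group nearly coincided for Stim2, and all 15 alternatives kept both calls. Stim1, the main sensor, was at 107, 110 and 157 CPM in AEL and 75.2, 73.4 and 77.4 CPM in NC (log2 fold change 0.73, SE 0.17, adjusted p = 0.0114).

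Orai1, the pore of the classical store-operated current, was lower, at 6.19, 7.70 and 10.2 CPM in AEL and 14.4, 13.5 and 17.6 CPM in NC (log2 fold change -0.92, SE 0.28, adjusted p = 0.0302). That call was fragile: it ended without AEL replicate 1 or 2 (adjusted p = 0.0716 and 0.0603), without NC replicate 1, 2 or 3 (adjusted p = 0.0844, 0.0718 and 0.117) and with library totals alone (adjusted p = 0.0714). Orai3 was at 31.1, 23.1 and 21.3 CPM in AEL and 21.4, 20.4 and 21.3 CPM in NC, and was not called (adjusted p = 0.324). Per kilobase of exon, the order of the 3 pore genes in NC was Orai3 at 9.55 to 10.0, Orai1 at 5.87 to 7.68 and Orai2 at 2.82 to 3.30 CPM per kb, with no overlap between neighbours. In AEL, Orai2 at 11.7 to 17.4 and Orai3 at 9.95 to 14.5 CPM per kb overlapped, and Orai1 at 2.70 to 4.42 CPM per kb lay below both.

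Among voltage-gated calcium channels, the L-type gene Cacna1c rose and the T-type genes Cacna1g and Cacna1i fell. Cacna1c, which encodes the L-type pore of heart and smooth muscle (chromosome 6, 118587240 to 119196418), was at 70.3, 60.5 and 24.7 CPM in AEL and 2.32, 2.01 and 1.84 CPM in NC, 25.1-fold higher (log2 fold change 4.65, SE 0.46, adjusted p = 0.00051). AEL replicate 3 was the lowest and still over every NC library, and the call held under all 15 alternatives. It was the only one of 6 tested genes of this family called higher, and 3 were called lower, against 23.9% and 29.0% of all genes. Cacna1a and Cacna1i, both called lower, reached 1 CPM in NC only.

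The T-type channels open at low voltage and carry transient current. Cacna1g was at 1.46, 0.326 and 0.366 CPM in AEL and 36.0, 42.3 and 47.0 CPM in NC, 58.4-fold lower (log2 fold change -5.87, SE 0.54, adjusted p = 0.000416), and -6.78 without AEL replicate 1. Cacna1i had 0, 0 and 1 count in AEL and 17, 14 and 22 counts in NC (adjusted p = 0.00154), an NC level 61.8 times the AEL level with a counting interval from 10.6 to 2486. Its fitted log2 fold change of -5.48 was -7.19 without AEL replicate 3. Cacna1h, the third T-type gene, was at 5.40, 0.109 and 0.640 CPM in AEL and 6.71, 8.15 and 9.56 CPM in NC. It was not called (log2 fold change -1.999, SE 1.03, adjusted p = 0.145) although the groups did not overlap, and without AEL replicate 1 it passed at -4.26 (adjusted p = 0.0027). With all libraries it passed as lower in limma with 1 or 5 CPM added (limma adjusted p = 0.0286 and 0.0181). The same held in voom with a spread per group (voom adjusted p = 0.0122).

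Cacna1a, the pore of presynaptic P/Q-type channels, was at 0.450, 0.109 and 0 CPM in AEL and 2.45, 1.30 and 2.65 CPM in NC (log2 fold change -3.50, SE 0.85, adjusted p = 0.013). The call ended without NC replicate 3 (adjusted p = 0.0528), and the fold change was -5.004 without AEL replicate 1 and -2.86 without AEL replicate 3. Cacna1e, the R-type pore, was at 8.55, 3.80 and 1.74 CPM in AEL and 11.2, 14.2 and 16.2 CPM in NC. It narrowly missed the threshold (log2 fold change -1.57, SE 0.56, adjusted p = 0.0511) and passed under 7 of the 15 alternatives, with adjusted p from 0.00565 without AEL replicate 1 to 0.0498 with a filter at 5 CPM; under the other 8 adjusted p ran up to 0.144. By DESeq2 it was 0.0172. AEL replicate 1 held the highest AEL level of all 5 genes of this family that were lower in every AEL library, except Cacna1i.

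The auxiliary potassium channel subunits went both ways, with 2 of 5 higher and 3 lower, against 23.9% and 29.0% of all genes tested. Kcnab3 reached 1 CPM in AEL only and Kcnip3 in NC only. Kcnab3, a beta subunit of Shaker family channels (chromosome 11, 69326258 to 69333042), had 136, 95 and 126 counts in AEL and 3, 1 and 3 counts in NC, or 15.3, 10.3 and 11.5 CPM against 0.387, 0.118 and 0.345 CPM. It was 41.9-fold higher in the fit (log2 fold change 5.39, SE 0.47, adjusted p = 0.000362), and the ratio of summed counts was 43.7 with a counting interval from 21.01 to 110. Its paralog Kcnab2 went the opposite way, with 0.338, 6.29 and 3.29 CPM in AEL and 28.5, 35.0 and 35.1 CPM in NC (log2 fold change -3.30, SE 0.77, adjusted p = 0.011), and -2.71 and -4.05 without AEL replicates 1 and 2. The order of the AEL libraries for Kcnab2, lowest in replicate 1 and highest in replicate 2, was that of the neutrophil marker sums. The part of neutrophils in this difference was not tested.

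Kcne3, a small subunit that changes the gating of its partner channels, was at 3.26, 2.28 and 3.20 CPM in AEL and 0.903, 1.54 and 0.806 CPM in NC (log2 fold change 1.42, SE 0.41, adjusted p = 0.0239). It no longer passed without NC replicate 1 or 3 (adjusted p = 0.0986 and 0.0969), or by DESeq2 (adjusted p = 0.0507). Kcnip2 and Kcnip3 encode calcium-binding partners of A-type channels, and Kcnip3 also acts as a transcriptional repressor. Kcnip2 was at 1.24, 1.95 and 0.549 CPM in AEL and 5.67, 6.38 and 4.61 CPM in NC (log2 fold change -2.16, SE 0.49, adjusted p = 0.0103). Kcnip3 had 0, 3 and 0 counts in AEL and 11, 10 and 16 counts in NC (adjusted p = 0.0153), and its call ended without NC replicate 1 or 3 (adjusted p = 0.0504 and 0.0598). Its log2 fold change of -3.66 was -6.72 without AEL replicate 2 and -3.03 without AEL replicate 3, and the ratio of NC to AEL counts was 14.4 with an interval from 4.55 to 72.9.

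All 6 TRP channel genes were called, 2 higher and 4 lower, against 23.9% and 29.0% of all genes tested. Of the lower ones, Trpm4 and Trpv4 reached 1 CPM in NC only. Trpm7, a magnesium-permeable channel fused to a kinase (chromosome 2, 126791565 to 126876230), was at 134, 164 and 183 CPM in AEL and 100, 108 and 111 CPM in NC, 1.51-fold higher (log2 fold change 0.59, SE 0.14, adjusted p = 0.0122). That call ended without NC replicate 1 (adjusted p = 0.055). Trpv5, the calcium channel of kidney epithelium, was at 7.43, 2.50 and 7.04 CPM in AEL and 0, 0.118 and 1.38 CPM in NC (log2 fold change 3.43, SE 1.04, adjusted p = 0.0299). NC replicate 3 held most of its NC counts, and the fold change was 6.24 without that library. The call ended without NC replicate 1 (adjusted p = 0.0744) or NC replicate 2 (adjusted p = 0.11).

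Trpm2, opened by ADP-ribose and oxidative stress and known from neutrophils and monocytes, was at 0.225, 4.99 and 1.28 CPM in AEL and 42.4, 54.0 and 57.0 CPM in NC (log2 fold change -4.56, SE 0.81, adjusted p = 0.00382). Trpv2, known from macrophages, was at 6.19, 14.1 and 3.47 CPM in AEL and 77.5, 70.5 and 70.5 CPM in NC (log2 fold change -3.20, SE 0.48, adjusted p = 0.00209). Both were highest among the AEL libraries in replicate 2, which also had the highest neutrophil and macrophage marker sums. Trpm2 was lowest in AEL replicate 1, as both sums were, but Trpv2 was lowest in AEL replicate 3. The part of those cells was not tested. Without AEL replicate 2 the log2 fold changes were -5.93 for Trpm2 and -3.89 for Trpv2. Trpv4, an osmosensitive channel, was at 0.113, 0.543 and 0.0914 CPM in AEL and 3.997, 3.90 and 3.80 CPM in NC (log2 fold change -3.92, SE 0.62, adjusted p = 0.00243), and -5.05 without AEL replicate 2.

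Trpm4, a calcium-activated channel for monovalent cations, was at 0, 0.651 and 0 CPM in AEL and 1.81, 1.42 and 1.84 CPM in NC. Its call was the weakest of all (log2 fold change -2.93, SE 1.02, adjusted p = 0.0476). It ended without AEL replicate 1 or 3 (adjusted p = 0.0765 and 0.0793), without NC replicate 1, 2 or 3 (adjusted p = 0.124, 0.109 and 0.129), with library totals alone (adjusted p = 0.0549) and by DESeq2 (adjusted p = 0.0915). Without AEL replicate 2, which holds every AEL count, the fold change was -6.91.

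Of 6 chloride channel and exchanger genes 3 were lower and none was called higher, against 29.0% and 23.9% of all genes tested. Clcn3, an endosomal chloride and proton exchanger (chromosome 8, 60910389 to 60983300), was at 98.4, 111 and 86.0 CPM in AEL and 229, 235 and 269 CPM in NC, 2.48-fold lower (log2 fold change -1.31, SE 0.14, adjusted p = 0.000605). Clcn7, the lysosomal exchanger, was at 49.1, 57.2 and 56.5 CPM in AEL and 79.6, 81.5 and 94.4 CPM in NC (log2 fold change -0.65, SE 0.13, adjusted p = 0.00641). Both calls held under all 15 alternatives. Clcn2, a plasma membrane channel, was at 32.0, 36.6 and 5.03 CPM in AEL and 89.6, 93.2 and 91.2 CPM in NC (log2 fold change -1.90, SE 0.62, adjusted p = 0.0383). AEL replicate 3 stood far below the others, and the call ended without AEL replicate 1 (adjusted p = 0.0513) and without NC replicate 1, 2 or 3 (adjusted p = 0.0911, 0.0924 and 0.0946). In the 3 fits without an NC library the log2 fold changes of Clcn2 were -1.91, -1.89 and -1.90.

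Clcn4, Clcn5 and Clcn6, which encode exchangers of the endosomal system, overlapped between the groups. Clcn4 was at 60.4 to 83.9 CPM in AEL and 61.0 to 65.4 CPM in NC (log2 fold change 0.13, SE 0.16). Clcn5 was at 6.08 to 10.9 CPM in AEL and 7.68 to 12.4 CPM in NC (log2 fold change -0.11, SE 0.34), and Clcn6 at 9.77 to 16.2 and 11.2 to 15.3 CPM (log2 fold change 0.07, SE 0.28). None passed (adjusted p = 0.504, 0.806 and 0.849).

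The 2 genes that are not channels were both higher. Kcnq1ot1, an imprinted noncoding RNA transcribed against the Kcnq1 gene, was at 9.79, 14.5 and 14.0 CPM in AEL and 3.48, 2.48 and 3.92 CPM in NC, 3.87-fold higher (log2 fold change 1.95, SE 0.32, adjusted p = 0.00295). Kcnq1 itself has no row in the table used here, and 0.130% of the annotated Kcnq1ot1 exon length overlaps its exons. Trpc4ap, an adaptor of a ubiquitin ligase, was at 179, 193 and 180 CPM in AEL and 144, 138 and 136 CPM in NC (log2 fold change 0.40, SE 0.10, adjusted p = 0.0122), and lost its call when NC replicate 2 or 3 was left out (adjusted p = 0.0598 and 0.0529).

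AEL libraries varied more among themselves than NC libraries. Of the 18 genes whose mean reached 5 CPM in both groups, 16 had the larger coefficient of variation in AEL, with a median of 20.8% in AEL and 5.35% in NC. The largest was 104% in AEL, for Kcnk5, and 27.0% in NC. As a view of the surroundings in the genome, 20 tested genes were read around a gene, 10 on each side. For Kcna4, Kcng3, Kcnab3 and Cacna1c their median log2 fold changes were 0.11, 0.53, -0.32 and 0.47. For Kcna2, Kcnj10 and Cacna1g the medians were -0.24, -1.09 and -0.25. Around Kcnn4 the median was -3.08, with 12 of 20 neighbours lower, against 29.0% of all genes tested.

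Other genes of ion transport were read from lists that do not overlap the rule. Of 20 tested genes of calcium stores, pumps and mitochondria, 5 were higher and 8 lower in AEL, or 25% and 40%, against 23.9% and 29.0% of all genes, with a median log2 fold change of -0.51. Mcu, the pore of the mitochondrial calcium uniporter, had a mean of 50.1 ± 4.49 CPM in AEL, against 21.8 ± 2.18 CPM in NC (SD over 3 libraries each; log2 fold change 1.20, SE 0.16, edgeR adjusted p = 0.00136). Atp2a2, the widespread calcium pump of the endoplasmic reticulum, rose to 405 ± 60.5 CPM in AEL, against 280 ± 17.3 CPM in NC, and Atp2a3, the pump of blood cells, was at 7.70 ± 4.51 and 85.7 ± 13.7 CPM, a log2 fold change of -3.48.

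Of 18 tested genes of the sodium pump, cotransport and cell volume, 5 were higher and 8 lower, or 27.8% and 44.4%, against the same shares of all genes, with a median of -0.07. Slc12a2, which brings sodium, potassium and chloride into the cell, was at 77.9 ± 6.98 CPM in AEL, against 35.8 ± 2.18 CPM in NC. Slc12a4 and Slc12a7, which carry potassium and chloride out, were lower, with log2 fold changes of -1.45 (SE 0.18) and -1.96 (SE 0.28). Of 30 tested ion channel genes outside the rule, 3 were higher and 13 lower, or 10% and 43.3%, against 23.9% and 29.0% of all genes, with a median of -0.41. Hvcn1, the proton channel of phagocytes and B cells, was among the lower ones at 0.919 ± 0.710 CPM in AEL, against 36.4 ± 3.86 CPM in NC. Phagocyte and B cell markers were lower too, and the part of those cells was not tested.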

How the data were processed

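Per the labels' protocols, poly-A RNA of sorted cells was sequenced. The authors deposited 1 table of whole-number counts per gene, although its name says CPM, with no scaling to a common total. The submitters' processing notes name mm10 and edgeR 3.32.1 without a role; for the aligner, counting tool and strandedness: not given in the sources used here. Each deposited gene exceeds 1 CPM in at least 2 libraries. No 2 libraries of a group agreed within sampling noise (chi-square per degree of freedom 4.82 to 59.0).

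The 12427 genes that reached 1 CPM in 3 or more libraries were fitted with edgeR 4.0.16 (R 4.3.3): TMM factors (0.925 to 0.949 in NC, 1.04 to 1.10 in AEL), group as the only term, quasi-likelihood test, Benjamini-Hochberg adjustment at 0.05. Every adjusted p in the text is edgeR's unless another tool is named. The SE is the absolute log2 fold change over the square root of F. Fold changes are AEL over NC. Alternatives used DESeq2 1.42.0, limma 3.58.1 (log2 of CPM plus 1 or 5, or voom with a spread per group), other scalings and filters, a replicate block and each library left out with the same genes tested. No animal is named, and the p-values reflect only the spread among these libraries, which may be technical.

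Values in every library were given for 10 channels of known erythroid or calcium interest, for genes at or under 3 counts throughout a group and for the 10 largest called changes each way, and also for most other members; some genes are not reported here by name. Members and lists were chosen with earlier results of these data known. Coordinates and exon lengths come from GENCODE M21 (GRCm38), matched by symbol for all 51 genes, and promoters from RefSeq (GRCm38.p6), with a window for 40. The planned search for a protein motif was not run, and proteins were not analysed here. Counting intervals are exact binomial at 95%. Python 3.11.15 was used.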

Additional observations from a re-analysis of the deposited data

How the results depend on the processing

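The number of genes called higher, 16, stayed within 12 to 16 under all 15 alternatives. The number called lower, 24, stayed within 16 to 27 under all but 1. A filter at 5 CPM left 34 of these genes tested. Of them, 12 were higher and 15 lower, against 2645 and 2840 of all 10246 genes tested. Leaving out 1 library gave 12 to 16 higher and 16 to 24 lower, with the fewest lower calls without NC replicate 3. Without an NC library, 1915 to 2062 of all 12427 genes were higher and 2662 to 2697 lower, against 2964 and 3599 with all libraries. Without an AEL library, these ranges were 3021 to 3375 and 3414 to 3921. Of the 40 calls, 11 higher and 16 lower held wherever they were tested. With library totals alone the median of all genes moved to 0.14, from -0.05, and higher genes made up 55.2% of all called, against 45.2%. That scaling ended the calls of Kcnn4, Orai1 and Trpm4 and turned the uncalled Clcn5 to 0.085. Other turns of direction were all in genes without a call: Kcnk5 gave -0.050 with a spread per group and ran from -0.74 to 0.90 when 1 library was left out, Kcnh6 from -0.033 to 1.03, Clcn4 from -0.00046 to 0.30, Clcn5 from -0.27 to 0.15 and Clcn6 from -0.019 to 0.30. The cause was not tested. The replicate numbers shared by the groups showed no pairing: deviations of same-numbered libraries correlated at 0.08, -0.02 and -0.03. A fit with the replicate block called 14 of these genes higher and 20 lower, against 2241 and 3238 of all 12427 genes. Among the calls it ended were those of Kcnip3, Trpc4ap, Orai1, Trpm4 and Kcne3. It gave -0.020 for Kcnk5. At these depths 3 counts in a library equal up to 0.387 CPM. Genes with no count in a group have a bound set from these 3 counts, and those with a few counts have a ratio with its counting interval, so the sizes of these folds are not comparable.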
